A study of Homo sapiens with 6 samples.

Results

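The integrin and laminin subunit genes were followed in A375 cells, a human melanoma cell line that carries an activating BRAF mutation. Genes of the deposited table were taken by symbol, as integrin alpha, integrin beta or laminin alpha, beta or gamma chains, without regard to their values. This gave 35 of the 20851 genes listed, of which 24 encode integrin subunits (16 alpha and 8 beta) and 11 encode laminin chains. ITGAL and ITGAD were not analysed here. The A375RIPK4.KO group held 3 libraries of the RIPK4 knockout subline, made with CRISPR/Cas9 and a lentiviral guide RNA against RIPK4 and represented by a single clone, clone #1. The A375neg group held 3 libraries of its negative counterpart, which the labels call a GFP control and for which the study's methods give a guide RNA without a human target. The labels name no other treatment in either group. Because the knockout is 1 clone, the effect of RIPK4 and a difference between clones cannot be told apart in any comparison here. The study describes the libraries of a group as independent biological replicates, and the labels do not say how the cultures were kept apart. The p-values measure the spread between these libraries.

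Integrins are receptors that span the membrane as a pair of 1 alpha and 1 beta chain. Outside the cell the pair binds matrix proteins or counter-receptors, and inside it is coupled to actin through talin, kindlin and vinculin. Laminins are the cross-shaped trimers of the basement membrane, each built of an alpha, a beta and a gamma chain, and the alpha chain carries the main binding sites for integrins. Neither a free alpha nor a free beta integrin chain is normally carried to the cell surface in quantity, and most laminin trimers are secreted only with their alpha chain. Melanoma cells use both families to leave the primary tumour and to settle elsewhere.

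The libraries held 21882863 to 26694140 counts in genes, and the 35 members took 0.351% to 0.447% of them. A limit of 3 counts, below which a gene was treated as not detected, equals 0.112 to 0.137 CPM (counts after scaling for library size) and covers counting error only. RIPK4, the targeted gene, had 319, 368 and 404 raw counts in A375neg and 42, 51 and 61 in A375RIPK4.KO, with a log2 fold change (log2FC) of -2.69 (standard error, SE, of 0.17, adjusted p = 1.01e-05 by edgeR). MITF and SOX10, which mark the melanocytic lineage, were detected in every library, at 288 to 535 and 7448 to 10056 raw counts. S100B, another marker of that list, had 83, 117 and 160 raw counts in A375neg and 55, 57 and 64 in A375RIPK4.KO. Each was lower in A375RIPK4.KO, with log2FCs of -0.44 for MITF, -0.20 for SOX10 and -0.89 for S100B (adjusted p = 0.0449, 0.0507 and 0.0360 by edgeR). MLANA, TYR, DCT and PRAME, of the same list, were not among the 20851 genes with counts, and PMEL and TYRP1 reached at most 22 and 8 counts. A375RIPK4.KO replicate 2 stood apart from the other libraries. Its counts fell with transcript length, by 0.331 on the log2 scale for every 10-fold increase in length, against slopes of -0.010 to 0.12 in the other 5 libraries. Where leaving it out ended or made a call, the value without it is given beside the result.

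Of the integrin genes, 2 alpha and 3 beta chains differed between the groups past both limits of the comparison, and none of the 9 laminin chains that could be tested did. A gene was called changed at an adjusted p under 0.05 (the quasi-likelihood test of edgeR, adjusted by the Benjamini-Hochberg method over all 14443 genes tested) and a fold change of at least 1.5. Of the 35 members, 28 had enough counts to be tested, 19 integrin subunits and 9 laminin chains. Of these, 5 were called, all of them integrins: ITGA4 was higher in A375RIPK4.KO, and ITGA1, ITGB2, ITGB7 and ITGB8 were lower. That is 26.3% of the tested integrin subunits, where 9.04% of all tested genes were called, 4.39% higher and 4.65% lower. ITGB7 passed the filter only through A375neg, so its call could not have been otherwise. Without it the share was 4 of 18 (22.2%), and both shares are a description. A further 7 members had an adjusted p under 0.05 with less than a 1.5-fold change (ITGA3 higher; ITGA2, ITGA6, ITGB4, ITGB5, LAMB2 and LAMB3 lower), so that 12 of 28 passed the p limit, against 16.6% of all tested genes (8.40% higher and 8.24% lower). The libraries of the groups did not overlap for 15 of the 28 (53.6%), and for 36.5% of all genes tested. ITGB7 is counted in the 12 and in the 15, and both counts are a description. The median log2FC was -0.29 for the integrin subunits (-0.215 without ITGB7), -0.11 for the alpha and -0.55 for the beta chains (-0.42 without ITGB7). It was -0.20 for the laminin chains, beside a median of -0.005 over all genes tested. The 7 members that could not be tested were ITGA8, ITGA2B, ITGAM, ITGAX, ITGB6, LAMB4 and LAMC3, none of which exceeded 23 raw counts in any library.

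**Figure D1:**
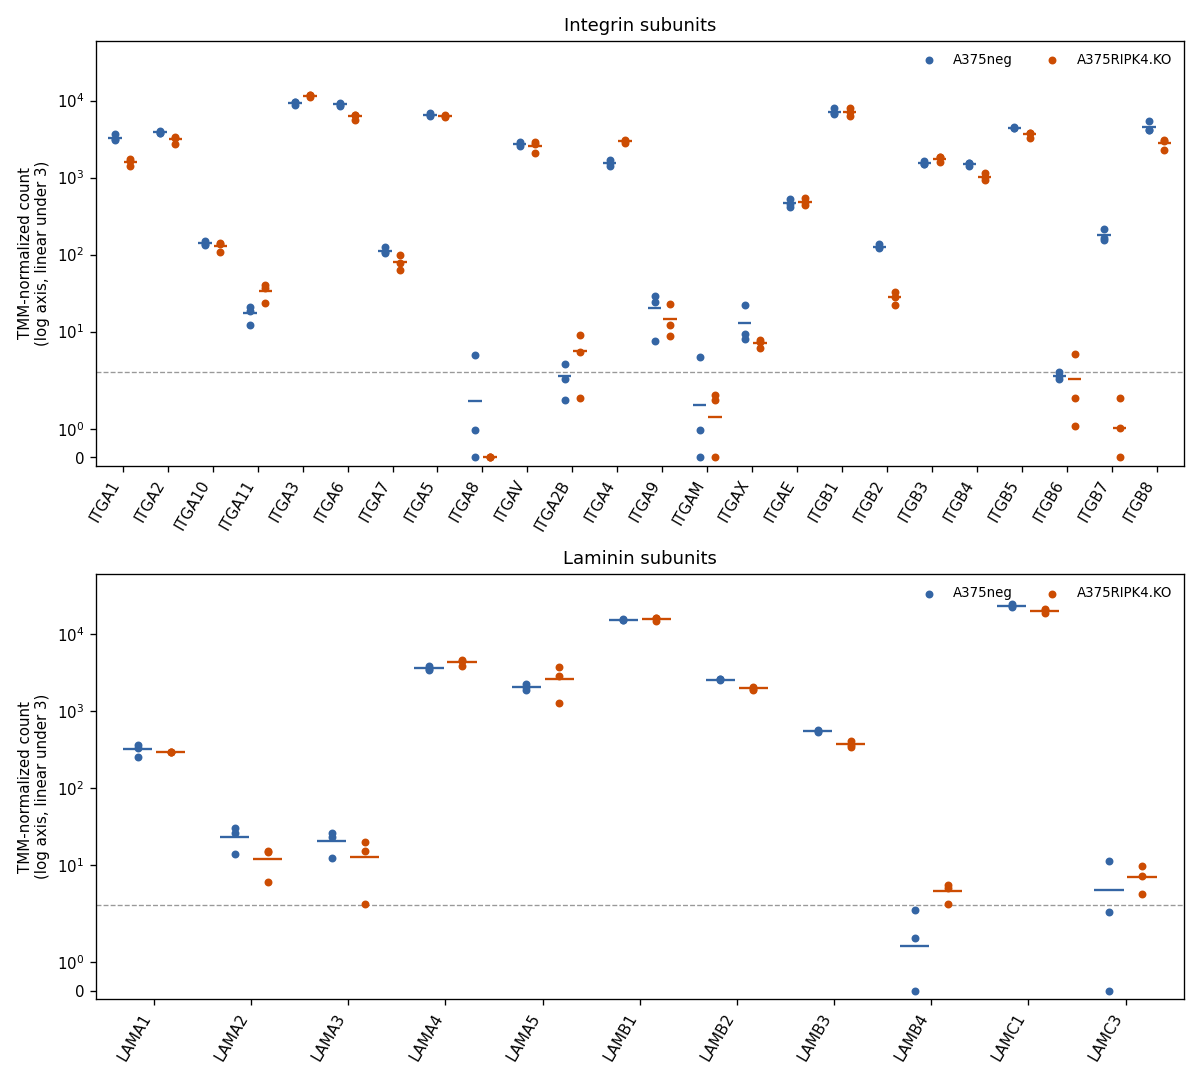
TMM-normalized counts of the 24 integrin and 11 laminin genes in each library (points; blue A375neg, orange A375RIPK4.KO), with the group mean as a bar, on a log axis that is linear under 3; the dashed line is at 3. ITGB7 drops from 178 to 1.03 and ITGB2 from 127 to 27.7 normalized counts on average, while ITGB1, LAMB1 and most abundant members stay near the same height.

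ITGB7 encodes the beta chain that pairs with ITGA4 or ITGAE on lymphocytes, where these receptors serve homing to the gut and retention in epithelium. It lies on the minus strand of chromosome 12 from 53191323 to 53207251 (RefSeq, GRCh38.p14). Its raw counts were 216, 178 and 162 in A375neg and 0, 2 and 1 in A375RIPK4.KO. All 3 knockout libraries were within the limit of 3 counts, and all 3 control libraries were far above it. Set against 3 counts in each library (3.15 normalized counts), ITGB7 was at least 56.4-fold lower in A375RIPK4.KO. No p-value is given, because it passed the filter on low counts through A375neg alone. In bulk RNA, loss from all cells and loss of a subset of cells that held the transcript cannot be told apart.

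ITGB2, the common beta chain of the leukocyte integrins, is on chromosome 21 from 44885953 to 44928815. It had 124, 147 and 127 raw counts in A375neg and 26, 31 and 22 in A375RIPK4.KO. The groups were well separated. Its normalized count was 127 ± 7.85 (SD, n = 3) and 27.7 ± 5.06 (SD, n = 3), which gave a log2FC of -2.19 (SE 0.21, adjusted p = 0.000156 by edgeR). The antisense gene ITGB2-AS1 moved in the same direction, from 42, 57 and 35 to 22, 23 and 12 raw counts, without reaching the p limit (adjusted p = 0.0622). The libraries kept strand, but the strand setting of the counting is not given in the sources used here, so reads of the sense and antisense gene cannot be told apart.

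Both genes are known best from leukocytes, and other leukocyte markers were counted in the same libraries. Of 11 such markers 7 were in the table, and 3 of them (CD68, CORO1A and LAPTM5) had over 3 counts in every library. Their summed level was 57.4 to 65.6 CPM in A375neg and 64.9 to 69.7 CPM in A375RIPK4.KO. PTPRC (CD45), which defines leukocytes, had 0, 0 and 3 counts in A375neg and 0, 0 and 1 in A375RIPK4.KO, and CD52 reached at most 3. LAPTM5, a lysosomal protein of blood cells, had 34, 30 and 28 raw counts in A375neg and 15, 12 and 15 in A375RIPK4.KO, without overlap and short of the p limit (log2FC -0.99, adjusted p = 0.0578 by edgeR). CORO1A went from 328, 331 and 394 to 326, 483 and 380, and SPI1 and CD14 reached at most 16 and 12. LAPTM5 thus moved in the direction of ITGB2 and ITGB7 while CD68 and CORO1A did not, and the part of leukocyte markers in the 2 values was not tested. The leukocyte alpha chains ITGAM and ITGAX reached at most 5 and 23 raw counts.

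ITGA1, the alpha chain of the collagen and laminin receptor alpha1-beta1, was lower in A375RIPK4.KO. It is on the plus strand of chromosome 5 from 52787916 to 52959209 and had 3167, 3343 and 3868 raw counts in A375neg against 1500, 1346 and 1720 in A375RIPK4.KO. The groups did not overlap. The normalized count was 3304 ± 317 (SD, n = 3) and 1596 ± 174 (SD, n = 3), which is 48.3% of the control, at a log2FC of -1.05 (SE 0.10, adjusted p = 0.000115 by edgeR). PELO, whose start coincides with that of ITGA1 in the RefSeq annotation, did not follow it, with 1613 normalized counts in A375neg and 1592 in A375RIPK4.KO (adjusted p = 0.882). ITGA2, which starts 201.4 kb away, is described with its group.

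ITGA4 was the 1 member called higher. It encodes the alpha4 chain, which with ITGB1 binds VCAM1 and fibronectin and with ITGB7 binds MADCAM1, and it lies on chromosome 2 from 181457205 to 181538940. It had 1532, 1541 and 1784 raw counts in A375neg and 2735, 2669 and 3073 in A375RIPK4.KO, again without overlap. The normalized count was 1547 ± 136 (SD, n = 3) and 2964 ± 166 (SD, n = 3), which gave a log2FC of 0.94 (SE 0.08, adjusted p = 6.8e-05 by edgeR). The 2 chains of the alpha4-beta7 receptor therefore moved in opposite directions.

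ITGB8, which pairs with ITGAV and activates latent TGF-beta, was lower by a smaller factor. Chromosome 7 carries it from 20329766 to 20415754, and its raw counts were 4159, 4479 and 5713 in A375neg against 2809, 2210 and 2970 in A375RIPK4.KO. Every knockout library was below every control library, but A375neg replicate 3 was the highest of its group and A375RIPK4.KO replicate 2 the lowest. The normalized count was 4566 ± 735 (SD, n = 3) and 2796 ± 425 (SD, n = 3), which gave a log2FC of -0.71 (SE 0.13, adjusted p = 0.00655 by edgeR). Without A375neg replicate 3 the log2FC was -0.57 and without A375RIPK4.KO replicate 2 it was -0.58, both just short of 1.5-fold and both with an adjusted p under 0.05.

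**Figure D2:**
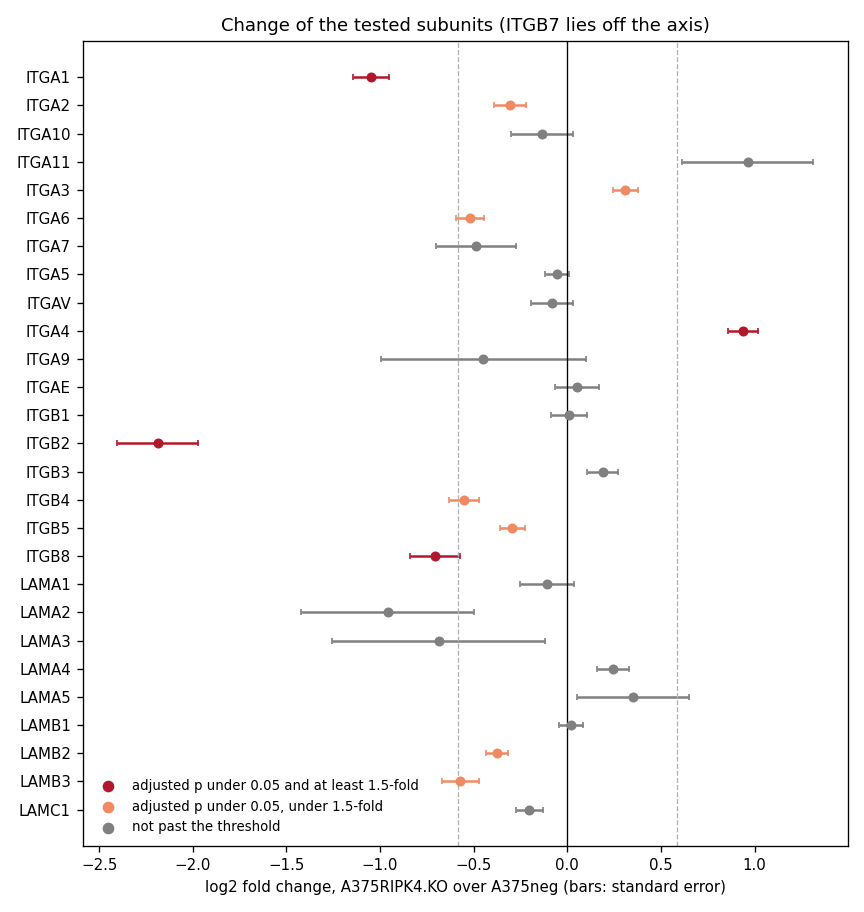
Log2 fold change of A375RIPK4.KO over A375neg for 27 of the 28 tested members, with the standard error as a bar; dashed lines mark a 1.5-fold change either way, and ITGB7, which is given as a bound, lies off the axis. ITGB2 at -2.19, ITGA1 at -1.05 and ITGB8 at -0.71 are on the left, ITGA4 at 0.94 on the right, and the most abundant beta chain, ITGB1, is at 0.01.

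The stretch before the start of ITGB7 and ITGA1 is shown because these 2 called genes differ in how many CpG dinucleotides, the sites at which DNA can be methylated, stand in front of them. Both are the 250 bases upstream of the start in RefSeq on GRCh38.p14, 5′ to 3′ on the strand of the gene, at chr12:53207252-53207501 (minus strand) and chr5:52787666-52787915 (plus strand). Capitals mark each CpG.
ITGB7: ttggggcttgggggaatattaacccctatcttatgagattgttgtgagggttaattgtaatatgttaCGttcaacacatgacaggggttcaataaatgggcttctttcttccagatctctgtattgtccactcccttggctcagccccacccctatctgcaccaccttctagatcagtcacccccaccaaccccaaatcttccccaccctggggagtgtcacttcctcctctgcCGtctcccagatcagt
ITGA1: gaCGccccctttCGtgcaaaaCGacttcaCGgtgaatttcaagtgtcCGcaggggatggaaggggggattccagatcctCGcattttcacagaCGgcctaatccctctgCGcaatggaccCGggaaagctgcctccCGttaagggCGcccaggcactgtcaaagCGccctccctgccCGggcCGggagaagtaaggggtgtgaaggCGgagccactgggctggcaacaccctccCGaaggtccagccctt
The ITGB7 stretch holds 2 CpG and the ITGA1 stretch 16. In windows of 300 bases that also take in the first 50 bases of the transcript, the count was 4 for ITGB7, 19 for ITGA1, 28 for ITGB8 and 31 for ITGA4, beside a median of 14 over the 35116 RefSeq windows. Fewer CpG than in ITGB7 were found in 24.5% of all windows, and fewer than in ITGA4 in 79.3%. The windows of ITGB7 and ITGA1 stand at the annotated start of the gene. Those of ITGB8 (chr7:20330650-20330949) and ITGA4 (chr2:181457136-181457435) stand at starts further inside the gene, so these CpG counts are not from like places. Windows were matched for 21 of the 35 members, and ITGB2 was not among them. Among 6 motifs searched on both strands, the letters CATGTG occurred once in the ITGB7 window (read as cacatg in the stretch above) and GGGCGG 2 times in that of ITGB8. The first is found in 11.1% and the second in 45.0% of all windows. The letters TGANTCA are held by 7.71% of all windows, CACGTG by 7.26%, TGTGGT by 13.1% and TATAAA by 11.5%, and none of these was found in the windows of the 4 called members. Methylation and factor binding were not measured here.

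The genes around the called members were compared next, taking the 3 nearest tested protein-coding genes on each side. Of these 30 neighbours, 4 were called. Beside ITGB7, IGFBP6 had a log2FC of -1.55 and RARG, 19.2 kb away, of -0.83 (adjusted p = 1.83e-05 and 0.000261 by edgeR), while ZNF740, the nearest, stood at -0.14 (adjusted p = 0.142). Among the neighbours of ITGB8, HDAC9 and DNAH11 were higher, with log2FCs of 1.22 and 1.11, opposite to ITGB8 itself. Their starts lie at -2242.9 and 1213.3 kb from that of ITGB8, with other tested genes between. No neighbour of ITGA1, ITGA4 or ITGB2 was called. The share of called neighbours, 13.3%, is near the 9.04% of all genes, so that nothing is read from these values about the members.

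Among the alpha chains that bind collagen, ITGA1 and ITGA2 had the highest levels. Levels of different genes were compared as normalized counts per kb of transcript. On this scale ITGA2, the alpha chain of the alpha2-beta1 collagen receptor, had 492 ± 14.9 (SD, n = 3) in A375neg and 398 ± 46.4 (SD, n = 3) in A375RIPK4.KO. Its log2FC of -0.30 passed the p limit with all libraries (adjusted p = 0.0410 by edgeR) and lost it without A375neg replicate 1, 2 or 3 or without A375RIPK4.KO replicate 1 (adjusted p up to 0.136). ITGA10 was at 26.7 and 24.3 per kb, with no call. ITGA11, near the bottom at 4.36 and 8.53 per kb, had normalized counts of 21.0, 18.4 and 12.3 in A375neg and 37.2, 40.7 and 23.3 in A375RIPK4.KO. These did not overlap, and the difference missed the p limit (log2FC 0.96, SE 0.35, adjusted p = 0.0977).

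None of the 3 laminin-binding alpha chains was called, and 2 passed the p limit alone, ITGA3 higher and ITGA6 lower. ITGA3, whose pair with ITGB1 binds laminins of the LAMA3 and LAMA5 chains, was the most abundant alpha chain, at 1913 ± 115 per kb (SD, n = 3) in A375neg and 2371 ± 98.5 per kb (SD, n = 3) in A375RIPK4.KO. Its log2FC was 0.31 (SE 0.07, adjusted p = 0.0130 by edgeR), under the 1.5-fold limit, and it missed the p limit without A375neg replicate 1 or without A375RIPK4.KO replicate 3. ITGA6, which pairs with ITGB1 or with the hemidesmosomal chain ITGB4, had 8694, 8617 and 9356 normalized counts in A375neg and 6476, 5624 and 6529 in A375RIPK4.KO. Every knockout library was lower, with a log2FC of -0.52 (SE 0.07, adjusted p = 0.00150). The ratio of ITGA3 to ITGA6 per kb was 1.21 ± 0.0704 (SD, n = 3) in A375neg and 2.16 ± 0.247 (SD, n = 3) in A375RIPK4.KO, without overlap (p = 0.1 in a two-sided exact permutation test, and 3 against 3 libraries cannot give less). With the length of all exons in place of the transcript the same ratio was 0.701 and 1.25, so that which of the 2 was the more abundant in A375neg depended on the length used. ITGA7, the alpha chain of muscle laminin receptors, was low, at 27.2 and 19.4 per kb, and was not called (adjusted p = 0.163 by edgeR). Without A375RIPK4.KO replicate 2 it was called lower, at a log2FC of -0.67 (adjusted p = 0.0499).

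The alpha chains that recognise the RGD sequence of fibronectin and vitronectin did not pass either limit. ITGA5, of the fibronectin receptor, was at 1472 and 1416 per kb (log2FC -0.06, SE 0.07), and ITGAV at 387 and 365 per kb (log2FC -0.08, SE 0.11). For both, the libraries of the groups overlapped. ITGA9, a relative of ITGA4, was at 2.54 and 1.85 per kb, and ITGAE, the partner of ITGB7 in epithelial lymphocytes, at 121 and 125 per kb.

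The order of the alpha chains in A375neg was ITGA3, ITGA6, ITGA5, ITGA2, ITGAV, ITGA4, ITGA1 and ITGAE, and of these neighbours ITGA6 overlapped ITGA5, ITGAV overlapped ITGA4 and ITGA4 overlapped ITGA1. In A375RIPK4.KO, by transcript length, ITGA4 moved from the sixth place to the fourth, and ITGA5 moved ahead of ITGA6. Both moves depended on the length used. With the length of all exons, ITGA6 kept a higher mean than ITGA5 in A375RIPK4.KO, and ITGA2 a higher mean than ITGA4. ITGA4 moved ahead of ITGAV by either length. ITGA4 made up 5.50% ± 0.325 (SD, n = 3) of the summed alpha level per kb in A375neg and 10.6% ± 0.353 (SD, n = 3) in A375RIPK4.KO, and ITGA1 4.57% and 2.21%. The summed alpha level itself was 6708 ± 306 per kb (SD, n = 3) and 6695 ± 189 per kb (SD, n = 3), with an exact permutation p of 1.0.

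The beta chains other than ITGB1 were lower in sum. ITGB1, which pairs with 12 of the alpha chains, had 6842, 6621 and 7903 normalized counts in A375neg and 7114, 6376 and 7991 in A375RIPK4.KO, and the groups overlapped throughout (log2FC 0.01, SE 0.10, adjusted p = 0.968 by edgeR). ITGB5, a partner of ITGAV on vitronectin, was at 1016 and 829 per kb, with a log2FC of -0.29 (adjusted p = 0.0180) that missed the p limit without A375neg replicate 1, 2 or 3. ITGB3, the other vitronectin receptor chain and a known marker of invasive melanoma, was at 385 and 440 per kb (log2FC 0.19, adjusted p = 0.159), and reached the p limit without A375RIPK4.KO replicate 2 (log2FC 0.27, adjusted p = 0.0126). ITGB4 had 1415, 1555 and 1535 normalized counts in A375neg and 941, 1128 and 1004 in A375RIPK4.KO. Its groups did not overlap, at a log2FC of -0.55 (SE 0.08, adjusted p = 0.00180 by edgeR). It crossed the 1.5-fold limit without A375neg replicate 1 and without A375RIPK4.KO replicate 2 (for the latter, log2FC -0.62, adjusted p = 0.000124 by edgeR). ITGB6, the epithelial partner of ITGAV, had at most 5 raw counts.

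Over all 8 beta chains the summed level was 4165 ± 272 per kb (SD, n = 3) in A375neg and 3664 ± 288 per kb (SD, n = 3) in A375RIPK4.KO. Without ITGB1 it was 2283 ± 93.4 (SD, n = 3) and 1772 ± 78.6 per kb (SD, n = 3). In both sums every knockout library was below every control library (exact permutation p = 0.1 for each). ITGB1 accordingly made up 45.1% ± 1.41 (SD, n = 3) of the beta level in A375neg and 51.6% ± 1.87 (SD, n = 3) in A375RIPK4.KO. ITGB8 made up 12.5% and 8.70%, and ITGB3 9.26% and 12.0%.

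Possible receptors were read from 24 known alpha-beta pairs, with a pair taken as detected when both RNAs had over 3 raw counts in each library of a group. By this rule 18 pairs were detected in A375neg and 16 in A375RIPK4.KO. The 2 lost pairs were ITGA4-ITGB7 and ITGAE-ITGB7. Without A375RIPK4.KO replicate 2, 17 pairs were detected in the knockout, ITGA2B-ITGB3 in addition, with 5 and 9 raw counts of ITGA2B. In both, ITGB7 was already the chain of lower RNA in A375neg, at 62.0 per kb against 369 for ITGA4 and 121 for ITGAE, and it was at 0.361 per kb in A375RIPK4.KO. Of the other pairs, ITGA8-ITGB1, ITGAM-ITGB2, ITGA2B-ITGB3 and ITGAV-ITGB6 were detected in neither group, and the 2 pairs of ITGAL and ITGAD were not analysed here.

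**Figure D3:**
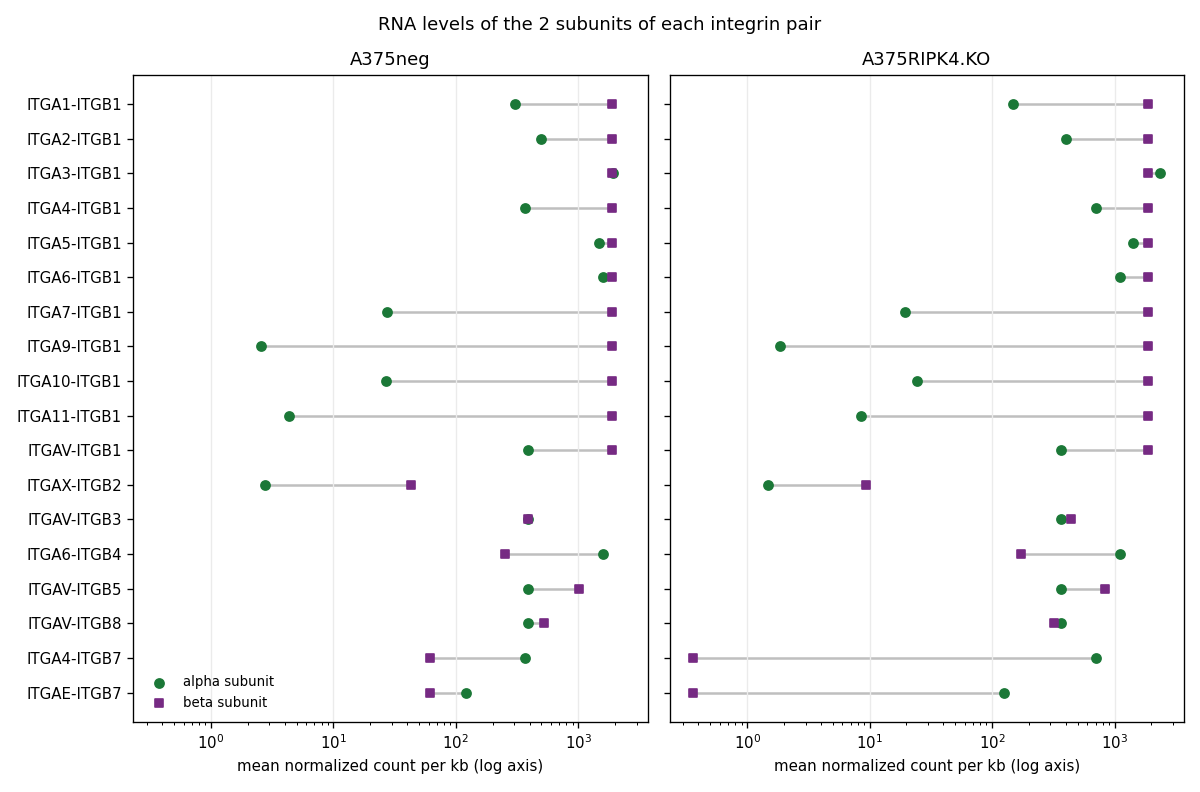
Mean normalized count per kb (log axis) of the alpha chain (green circles) and the beta chain (purple squares) of the 18 integrin pairs detected in at least 1 group, in A375neg (left) and A375RIPK4.KO (right). The wide gaps in the ITGB1 pairs show the alpha chain as the lower one; the ITGB7 squares move from 62.0 to 0.361 per kb, and the ITGB8 square crosses to the left of the ITGAV circle.

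The chain of lower RNA per kb was the same in both groups for 13 of the 16 pairs detected in both, and in 12 of these it was the alpha chain. The exception was ITGA6-ITGB4, in which ITGB4 was the lower chain in both groups, at 254 ± 12.8 (SD, n = 3) and 173 ± 16.1 per kb (SD, n = 3). In those of the pairs that hold ITGB1, present at 1882 and 1892 per kb, the alpha partner was the lower chain. It stood below ITGB1 by 0.25 (ITGA6) to 9.74 (ITGA9) on the log2 scale in A375neg. The remaining pairs with a lower alpha chain were ITGAV-ITGB5 and ITGAX-ITGB2. For ITGAX-ITGB2 the log2 ratio of alpha to beta was -4.10 in A375neg and -2.64 in A375RIPK4.KO, with at most 23 raw counts of ITGAX. For ITGA1-ITGB1 the log2 ratio of alpha to beta went from -2.62 to -3.67, and for ITGA4-ITGB1 from -2.35 to -1.41, each without overlap between the groups (exact permutation p = 0.1). Taken as a sum, the alpha partners of ITGB1 held 3.51 ± 0.193 (SD, n = 3) times the level of ITGB1 in A375neg and 3.49 ± 0.295 (SD, n = 3) times in A375RIPK4.KO (exact permutation p = 0.9). In sum, then, ITGB1 was the lower side of its own pool in both groups, although it was the higher chain in nearly every single pair.

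With transcript length, 1 pair changed its order between groups. In ITGAV-ITGB8 the lower chain was ITGAV in all 3 A375neg libraries and ITGB8 in all 3 A375RIPK4.KO libraries, with a log2 ratio of alpha to beta of -0.42 ± 0.17 (SD, n = 3) and 0.19 ± 0.07 (SD, n = 3) and an exact permutation p of 0.1. This order depended on the length: with the length of all exons ITGB8 was the lower chain in A375RIPK4.KO and the A375neg libraries disagreed, and without division by length ITGAV was the lower chain in both groups. ITGAV-ITGB3 and ITGA3-ITGB1 were near balance in A375neg, where the lower chain differed between libraries, and in A375RIPK4.KO the lower chains were ITGAV and ITGB1. For these 2 pairs too, the lower chain changed with the length used. ITGA6-ITGB1, in which ITGA6 was the lower chain of both groups by transcript length, also changed: with the length of all exons and without division by length, ITGB1 was the lower chain in A375neg and ITGA6 in A375RIPK4.KO. Without division by length the A375RIPK4.KO libraries disagreed for ITGA5-ITGB1. The 5 beta partners of ITGAV summed to 9.82 ± 0.374 (SD, n = 3) times ITGAV in A375neg and 9.63 ± 1.01 (SD, n = 3) times in A375RIPK4.KO (exact permutation p = 0.8). ITGB1, which has many other partners, is part of that sum, and without it the ratio was 4.97 ± 0.175 (SD, n = 3) and 4.41 ± 0.603 (SD, n = 3), with an exact permutation p of 0.3. By RNA ITGAV was below its summed partners in both groups either way. The lower RNA of a pair is not shown to set the amount of protein.

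None of the 9 tested laminin chains was called, beside 9.04% of all genes tested. LAMB1 and LAMC1 had the highest levels per kb, LAMA4 and LAMB2 came next, and LAMB4 and LAMC3 were the lowest, at 0.267 and 0.768 per kb in A375neg. LAMA4, the main chain of laminins made by endothelium and mesenchyme and also by melanoma cells, had 3492, 3445 and 3897 normalized counts in A375neg and 4479, 3795 and 4573 in A375RIPK4.KO. Its groups overlapped through A375RIPK4.KO replicate 2. The log2FC was 0.25 (SE 0.09, adjusted p = 0.0861 by edgeR), and it passed the p limit without that library (0.33, adjusted p = 0.00340), with DESeq2 and with a correction for transcript length. LAMA4 held 71.9% ± 1.44 (SD, n = 3) of the summed laminin alpha level per kb in A375neg and 72.4% ± 7.25 (SD, n = 3) in A375RIPK4.KO.

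LAMA5, the chain of the widespread epithelial and vascular laminins, was decided by 1 library. It had 2217, 1883 and 2020 normalized counts in A375neg and 3675, 1275 and 2861 in A375RIPK4.KO. Replicates 1 and 3 of the knockout were above every control library and replicate 2 below every one. With all libraries the log2FC was 0.35 (SE 0.30, adjusted p = 0.478 by edgeR). Without A375RIPK4.KO replicate 2 it was 0.68 (adjusted p = 0.000850), past both limits.

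The transcript of LAMA5 is 11.4 kb long, the longest of the members compared. Relative to the mean of replicates 1 and 3, replicate 2 stood at -1.36 for LAMA5 on the log2 scale. Of the 11 tested members with over 50 counts in each knockout library and a transcript longer than 5.65 kb, 10 were lower in replicate 2, with a median of -0.25. Of the 11 members with shorter transcripts, 5 were lower, with a median of 0.06. What part the length-related loss of counts had in the LAMA5 value was not tested beyond the correction for length, after which LAMA5 was at 0.39 (adjusted p = 0.286).

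**Figure D4:**
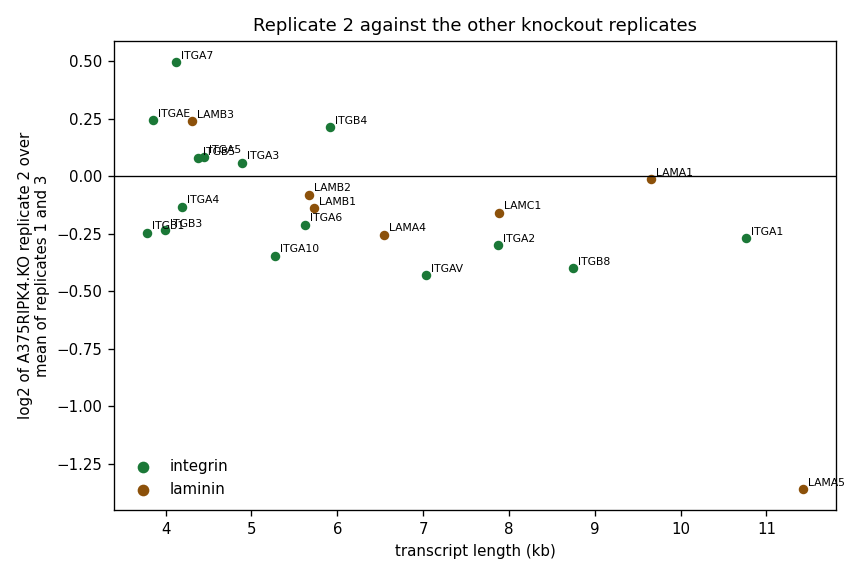
Log2 of the normalized count in A375RIPK4.KO replicate 2 over the mean of replicates 1 and 3 (vertical axis) against transcript length in kb (horizontal axis), for 22 tested members with over 50 counts in each knockout library. LAMA5 at 11.4 kb lies at -1.36, and 10 of the 11 members above the median length lie under 0.

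The remaining alpha chains were low. LAMA1, the embryonic chain, was at 32.8 and 30.4 per kb, and LAMA2 of muscle and nerve and LAMA3 of epidermis were at 2.43 and 1.92 per kb in A375neg and at 1.24 and 1.19 per kb in A375RIPK4.KO. None of the 3 passed either limit.

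Of the beta chains, LAMB2 and LAMB3 were lower in A375RIPK4.KO by less than 1.5-fold. LAMB1, the common beta chain, was at 2679 and 2713 per kb (log2FC 0.02, SE 0.06). LAMB2, its alternative in synapse, kidney and vessel, had 2577, 2515 and 2579 normalized counts in A375neg and 2058, 1898 and 1953 in A375RIPK4.KO. Its replicates were tight and the groups apart, at a log2FC of -0.38 (SE 0.06, adjusted p = 0.00228 by edgeR). LAMB3, a chain of the laminin of the epidermal anchoring complex, had 531, 567 and 556 normalized counts in A375neg and 361, 413 and 340 in A375RIPK4.KO, a log2FC of -0.57 (SE 0.10, adjusted p = 0.00398). It crossed 1.5-fold without A375neg replicate 1 and without A375RIPK4.KO replicate 2 (for the latter, log2FC -0.65, adjusted p = 0.000810 by edgeR). LAMB1 made up 82.2% ± 0.293 (SD, n = 3) of the beta level in A375neg and 86.2% ± 0.645 (SD, n = 3) in A375RIPK4.KO. The pseudogene LAMB2P1, which could share reads with LAMB2, had 2 to 8 counts.

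The gamma chain LAMC1, shared by most laminin trimers, was lower without passing the p limit. It had 22867, 22234 and 24537 normalized counts in A375neg and 20596, 18724 and 21172 in A375RIPK4.KO, the highest of the members (log2FC -0.20, SE 0.07, adjusted p = 0.0869 by edgeR). Its groups did not overlap, and it passed the p limit with DESeq2 (adjusted p = 0.0348).

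LAMB3 and the hemidesmosomal ITGA6 and ITGB4 are known best from keratinocytes. Of 6 keratinocyte markers 4 were in the table and 2 (KRT14 and KRT10) had over 3 counts in every library, and their summed level was 71.4 to 75.5 CPM in A375neg and 54.1 to 63.4 CPM in A375RIPK4.KO. KRT14 had 461, 607 and 504 raw counts in A375neg and 121, 158 and 147 in A375RIPK4.KO, while KRT5 and EPCAM reached at most 11 and 6. KRT10 did not move, at 1302 normalized counts in A375neg and 1297 in A375RIPK4.KO (log2FC -0.005, adjusted p = 0.976 by edgeR). KRT14 thus moved in the direction of LAMB3, ITGA6 and ITGB4 while KRT10 did not. The part of keratinocyte markers in the values of these members was not tested. The endothelial markers summed to 13.0 to 17.4 CPM and 18.6 to 20.4 CPM, with 4 of 5 in the table, beside LAMA4. KDR carried the sum, with 374, 291 and 279 raw counts in A375neg and 391, 452 and 463 in A375RIPK4.KO (log2FC 0.60, adjusted p = 0.0216 by edgeR). PECAM1 went the other way, from 21, 23 and 24 to 4, 5 and 5, and CDH5 from 7, 7 and 14 to 4, 2 and 0. No p-value is given for PECAM1, because it passed the filter on low counts through A375neg alone. The part of these markers in the LAMA4 value was not tested. The fibroblast markers, 4 of 5, summed to 4.08 to 5.81 and 4.55 to 5.90 CPM.

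**Figure D5:**
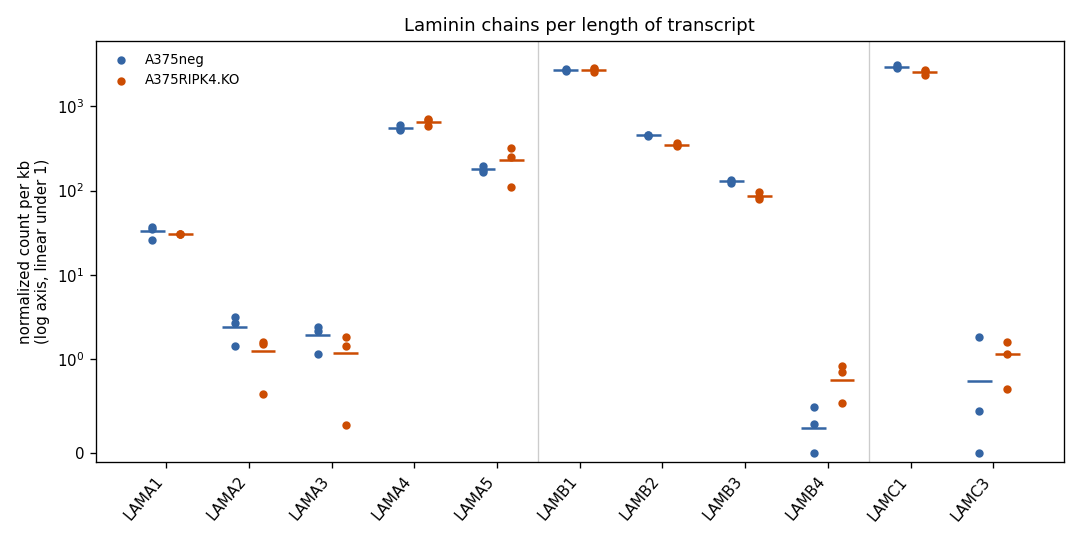
Normalized count per kb of the 11 laminin chains in each library (points; bar, group mean; blue A375neg, orange A375RIPK4.KO) on a log axis that is linear under 1, with lines between alpha, beta and gamma chains. LAMB1 and LAMC1 lie at 2373 per kb or higher in every library, and the highest alpha chain, LAMA4, lies near 552 and 654 per kb on average.

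Laminin trimers were read in the same way from 13 known combinations. All 3 chains were detected for 10 in A375neg and for 11 in A375RIPK4.KO, and 8 were detected in both. The 2 LAMA3 trimers were lost in A375RIPK4.KO only because replicate 2 held exactly 3 counts of LAMA3, and the 3 LAMC3 trimers were gained at up to 9.8 normalized counts of LAMC3. For all 8 shared trimers the chain of lowest RNA per kb was the same in both groups. It was the alpha chain in 7 of them. In LAMA4-LAMB1-LAMC1, the trimer with the highest lowest chain, LAMA4 was lowest, at 552 ± 37.9 (SD, n = 3) and 654 ± 64.8 per kb (SD, n = 3), below the highest chain by 2.42 and 2.06 on the log2 scale. In LAMA4-LAMB2-LAMC1 the lowest chain was LAMB2, at 451 ± 6.41 (SD, n = 3) and 347 ± 14.4 per kb (SD, n = 3). With the length of all exons, LAMA4 was the lowest chain of that trimer in A375neg. LAMA5 was lowest in both of its trimers with LAMC1.

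Set against the sum of the alpha chains, LAMC1 stood at 3.84 ± 0.0252 (SD, n = 3) times it in A375neg and at 2.84 ± 0.396 (SD, n = 3) times in A375RIPK4.KO, without overlap (exact permutation p = 0.1). LAMC1 itself went from 2942 ± 151 (SD, n = 3) to 2556 ± 162 per kb (SD, n = 3), likewise without overlap. The summed alpha level was 767 ± 42.9 (SD, n = 3) and 915 ± 168 per kb (SD, n = 3) with an exact permutation p of 0.4, and it was lowest in A375RIPK4.KO replicate 2. The beta chains summed to 3258 and 3148 per kb (exact permutation p = 0.4). In every library the summed alpha chains were thus below both LAMC1 and the summed beta chains by RNA.

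Genes that work with integrins and laminins were counted from 6 lists. Of 106 listed genes 95 were in the table and 82 were tested. Of these 5 were higher and 5 lower, 12.2% beside 9.04% of all genes. A further 13 passed the p limit only, so that 23 of the 82 passed it, beside 16.6% of all genes. The median log2FC of the 82 was 0.05. TNS4, among the lower genes, passed the filter only through A375neg, so that it could only be called lower. With a mean of at least 50 counts, which leaves TNS4 out, 9 of 73 were called, 5 higher and 4 lower.

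Of the 31 tested cytoplasmic activators and adaptors, 1 was called higher and 1 lower (6.45%, beside 9.04% of all genes). A further 7 were past the p limit only, a limit that 16.6% of all genes passed at any fold change. TNS1, which ties the beta tail to actin, was higher (90.2 ± 18.8 and 158 ± 19.9 normalized counts, SD, n = 3; log2FC 0.81, adjusted p = 0.0258 by edgeR). It lost its call without A375neg replicate 2 or 3 and without A375RIPK4.KO replicate 1 or 3. TNS4, of the same family, had 17, 24 and 13 raw counts in A375neg and 1, 3 and 3 in A375RIPK4.KO, and was named after its values were seen. It passed the filter on low counts through A375neg alone, so that it could only be called lower, and no p-value is given. Its call was lost without A375neg replicate 2. Vinculin (VCL) and focal adhesion kinase (PTK2) were higher by 0.35 and 0.30 on the log2 scale, past the p limit alone (adjusted p = 0.00327 and 0.0107), and were likewise named afterwards. No inhibitor among the 4 tested was called.

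Of 10 tested membrane partners 2 were called (20.0%, beside 9.04% of all genes), both tetraspanins and both lower. Other tetraspanins of the list, named after their values were seen, were not called. CD81 and CD151 had log2FCs of 0.21 each, TSPAN4 of 0.09 and CD63 of -0.14. CD9 had 1184 ± 63.1 (SD, n = 3) normalized counts in A375neg and 721 ± 104 (SD, n = 3) in A375RIPK4.KO (log2FC -0.72, adjusted p = 0.00177 by edgeR). CD82 had 159 ± 36.0 (SD, n = 3) and 81.2 ± 6.51 (SD, n = 3), which gave a log2FC of -0.97 (adjusted p = 0.0112).

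Of 15 tested matrix ligands of integrins 3 were called (20.0%, beside 9.04% of all genes), all higher, and the median log2FC of the 15 was 0.06. SPP1 (osteopontin), bound by ITGAV and ITGA4 receptors, had 910 ± 35.6 (SD, n = 3) normalized counts in A375neg and 6595 ± 630 (SD, n = 3) in A375RIPK4.KO, a log2FC of 2.86 (SE 0.09, adjusted p = 1.18e-07 by edgeR). CCN2 and CCN1, matricellular proteins bound by several integrins, had log2FCs of 1.78 and 0.94 (adjusted p = 1.18e-06 and 4.06e-05). FN1 (fibronectin) was not called with all libraries (log2FC 0.58, adjusted p = 0.0521 by edgeR). It was called higher without A375RIPK4.KO replicate 2 (log2FC 0.79, adjusted p = 2.11e-05 by edgeR). With all libraries and the correction for gene length it was called higher as well. TNC and THBS1, likewise named after their values were seen, went the other way. TNC was lower past the p limit alone (log2FC -0.37, adjusted p = 0.0161 by edgeR, up to 0.0714 with 1 library left out). THBS1 was lower without overlap and short of the p limit (log2FC -0.51, adjusted p = 0.0699), and was called lower without A375RIPK4.KO replicate 3. None of the 6 tested cell-surface ligands was called.

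Of 16 tested partners of laminin in the basement membrane 1 was called higher and 2 lower (18.8%, beside 9.04% of all genes). DAG1 (dystroglycan), a laminin receptor outside the integrin family, had 6489 ± 432 (SD, n = 3) normalized counts in A375neg and 4004 ± 328 (SD, n = 3) in A375RIPK4.KO (log2FC -0.70, adjusted p = 0.000365 by edgeR). COL4A5, a collagen IV chain, was lower at a log2FC of -0.92 (adjusted p = 0.0132). DST, whose epithelial isoform ties ITGB4 to keratin, was higher at 0.70 (adjusted p = 0.00337). The major collagen IV chains COL4A1 and COL4A2 were higher by 0.53 and 0.47 on the log2 scale, past the p limit alone, and were named after their values were seen, as was FN1. Without A375RIPK4.KO replicate 2, COL4A1 crossed 1.5-fold (log2FC 0.59).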

How the data were processed

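RNA-seq was analysed for 3 A375neg and 3 A375RIPK4.KO libraries, grouped by their labels. The raw counts per gene were deposited as whole numbers. Per the labels, poly(A)-selected, strand-specific libraries were sequenced in paired-end mode, and the submitters' processing notes name cutadapt, FastQC, HISAT2, HTSeq, DESeq2 and the genome build GRCh38.p13, with no version of the tools. The counts after normalization that the authors deposited beside them, a signal, equal the raw counts divided by 1 factor per library (largest difference 0.0764) and entered no test. Columns of the authors' own comparison (fold changes, p-values) were not used.

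The test on raw counts was the quasi-likelihood test of edgeR 4.0.16 in R 4.3.3 (TMM, filterByExpr with a minimum count of 10, Benjamini-Hochberg adjustment over 14443 genes). Standard errors are |log2 fold change| over the root of the F statistic. TMM-normalized counts were divided by the length of the longest GENCODE release 29 transcript with a RefSeq match, available for 35 of 35 members. Ratios and sums of 3 against 3 libraries were compared by a two-sided exact permutation test in scipy 1.17.1, which cannot go below p = 0.1. Depth was 21882863 to 26694140 counts per library.

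The members, the gene lists and the pairs and trimers, which were written from general knowledge, were chosen with earlier results of these data known. One chain and its complexes are not reported here. The rule for named genes took in every member, RIPK4, each called gene of the lists with a mean of at least 50 raw counts, and the 3 nearest tested genes on each side of a called member. Alternatives were DESeq2 1.42.0, its size factors in edgeR, no filter, a mean of at least 50 counts, other fold limits, a correction for gene length, a block by replicate number, leaving out single libraries and other lengths. The correction removed each library's trend of log2 values on length. On simulated counts, with 200 genes changed by known folds, the fits were tested first. Promoter windows and gene positions came from RefSeq (GRCh38.p14). Protein sequences were not used here. Figures were drawn with matplotlib 3.10.9.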

Additional observations from a re-analysis of the deposited data

How the results depend on the processing

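The 5 called members (ITGA1, ITGA4, ITGB2, ITGB7 and ITGB8) were the same with DESeq2, with DESeq2's size factors in edgeR, without a filter, with a mean of at least 50 counts, with the gene length correction and with the replicate number as a block. Without a fold limit 10 integrin subunits and 2 laminin chains (LAMB2 and LAMB3) were called, and at 2-fold 3 integrin subunits (ITGA1, ITGB2 and ITGB7). When single libraries were left out, the counts were 4 to 6 integrin subunits, 0 to 2 laminin chains and 8 to 12 pathway genes. ITGB8 was lost without A375neg replicate 3 and without A375RIPK4.KO replicate 2. ITGB4 and LAMB3 were gained without A375neg replicate 1, and ITGA7, ITGB4, LAMA5 and LAMB3 without A375RIPK4.KO replicate 2. Of the pathway genes 23 were called without a fold limit and 3 at 2-fold, against 10. Each of these counts includes TNS4, which passed the filter only through A375neg. The number of detected laminin trimers fell from 10 in A375neg and 11 in A375RIPK4.KO to 6 in each when each chain had to reach a mean of 50 counts, since the LAMA2, LAMA3 and LAMC3 chains lie below it. Of 360 alternative values of single members, 341 stayed on the same side of the p limit, 9 were no longer past it and 10 were newly past it. The sign changed in 8, all past the p limit in neither fit, for ITGAE, ITGAV, ITGB1, LAMA1 and LAMB1 at sizes of at most 0.077. By both limits 2 calls were lost and 6 gained.

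Replicate numbers were checked as possible pairs: correlations of same-numbered libraries were 0.082, 0.036 and -0.012, so the numbers were taken as names only. With the replicate block, 5 integrin subunits, 0 laminin chains and 10 pathway genes were called, as without it, and RIPK4 stood at -2.69. LAMA4 passed the p limit under the block (adjusted p = 0.0340 by edgeR). Depth limits ITGA8, ITGAM, ITGB6 and LAMB4, with at most 5 counts, and ITGA2B and LAMC3, with at most 9 and 12, for which no difference was detectable.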
